A study of Homo sapiens with 6 samples.

Results

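Tissue factor and its inhibitors, the urokinase and tissue plasminogen activators with the urokinase receptor, and the 3 fibrinogen chains were followed in A549 cells after silencing of FSCN1. The genes are TFPI, TFPI2, F3, PLAT, PLAU, PLAUR, FGA, FGB and FGG, 9 of the 30230 genes in the count table, and each was found by its symbol. TFPI and the genes around it were selected on their difference between control and silenced cells in these same libraries, TFPI also by the study itself, so their values are given here as a description with no p-value. All 9 passed the filter on low counts, as did 17076 genes of the table.

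A549 is a human lung adenocarcinoma line, and polyadenylated RNA was sequenced from 3 libraries of A549 transfected with a negative control (NC) and 3 libraries of A549 transfected against FSCN1 (siFSCN1). FSCN1 encodes fascin, which bundles actin filaments. Per the study's text, siFSCN1 was a single siRNA design and NC a scrambled siRNA. The labels instead list a control plasmid for NC, so each group stands for 1 transfected reagent in 1 cell line. The transfection methods give collection at 48 hours, and all 6 libraries, controls included, come from transfected cells. The study calls the 3 libraries of a group biological replicates, but separate cultures were not described, and the tests measure the spread between these libraries.

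As background, coagulation begins when tissue factor, the product of F3, binds factor VII. TFPI blocks that complex together with activated factor X, and its relative TFPI2 inhibits plasmin and other serine proteases in the extracellular matrix. Thrombin cuts fibrinogen, a secreted protein of paired Aα, Bβ and γ chains encoded by FGA, FGB and FGG, and the product polymerizes as fibrin. Fibrin is dissolved by plasmin, which is made from plasminogen by urokinase (PLAU), bound to cells by its receptor (PLAUR), or by tissue plasminogen activator (PLAT). Liver is the main source of plasma fibrinogen, and lung epithelial cells, A549 included, can also make it.

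The count totals ran from 27967301 to 36560919 per library. FSCN1 was lower in siFSCN1, at 44.98, 47.24 and 45.99 FPKM (sequenced fragments per unit of gene length, corrected for depth) in NC and 4.46, 2.82 and 3.19 in siFSCN1, a log2 fold change of −3.89 (SE 0.094, adjusted p = 8.1e-16, edgeR quasi-likelihood test). All 10 markers of A549 were detected, and their summed FPKM was 8615 to 9314 in NC and 8455 to 8970 in siFSCN1. Single markers under this sum differed in both directions. KRT18 was at 1946.66, 1675.44 and 1824.10 FPKM in NC and 1156.80, 984.50 and 939.24 in siFSCN1. ALDH1A1 was at 1729.18, 1610.59 and 1720.09 against 2411.55, 2317.92 and 2379.00, and CDH1 at 9.41, 9.02 and 9.25 against 26.53, 25.94 and 26.65. Of the markers of other cells, those of trophoblast, a strong source of TFPI2, summed to at most 0.11 FPKM with all 10 under 0.1. Of the 10 endothelial markers, 9 were under 0.1, and the sum, nearly all from ESAM, was 1.18 to 1.20 in NC and 1.00 to 1.17 in siFSCN1. Fibroblast markers summed to 0.48 to 0.56 and 0.37 to 0.69, and platelet and leukocyte markers, led by CD14, to 3.50 to 3.91 and 5.06 to 6.13. The hepatocyte markers are given beside the liver genes.

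A gene was called when its adjusted p was under 0.05 and its change at least 2-fold. By that rule TFPI, FGB and FGG were higher in siFSCN1, PLAUR was lower and the other 5 members were not called. Among all 17076 genes tested, 16.5% were called, 11.7% as higher and 4.85% as lower. Counts relative to TMM-scaled library size (CPM) did not overlap between the groups for TFPI, TFPI2, FGA, FGB and FGG, all higher in siFSCN1, nor for PLAT, PLAU and PLAUR, all lower. Of all genes tested, 36.8% were higher and 34.4% lower without overlap. Nothing is read from the members' counts against these shares, since the same contrast chose the members. The threshold separated PLAUR, at a log2 fold change of −1.13, from PLAT at −0.98, and on the other side FGG, at 1.37, was the lowest called and TFPI2, at 0.46, the next below it. The median of the 9 log2 fold changes was 0.34, beside 0.03 over all tested genes.

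**Figure D1:**
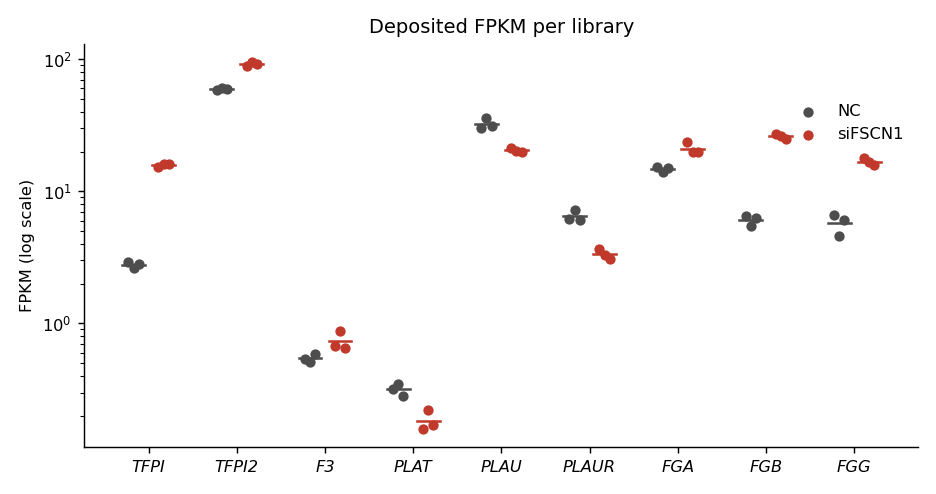
FPKM of the 9 genes in each library on a log axis, with NC in grey and siFSCN1 in red; each point is 1 library and each bar the mean of 3. TFPI, FGB and FGG stand furthest above their NC points and PLAUR, PLAU and PLAT below them, while F3 and PLAT lie under 1 FPKM in every library.

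TFPI was the member with the largest difference. Its level was 2.92, 2.61 and 2.80 FPKM in the NC libraries and 15.30, 15.96 and 16.06 in the siFSCN1 libraries, so that the lowest silenced library was far above the highest control. In CPM the means were 40.9 ± 2.46 and 207 ± 7.89 (SD, n = 3 each), a 5.06-fold higher value in siFSCN1 (log2 fold change 2.34, SE 0.050). TFPI ranked at place 221 from the top of the 17076 fold changes. The gene (ENSG00000003436.16) lies on the minus strand at chr2:187464230-187565760 in GRCh38. An antisense lncRNA, CALCRL-AS1, overlaps it on the other strand and was counted 21, 7 and 16 times in NC and 40, 39 and 36 times in siFSCN1, against 1013 to 1401 and 6818 to 7185 counts for TFPI. The strand setting of the counting was not given in the sources used here, so reads of overlapping genes on opposite strands may not be separated.

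TFPI2, at chr7:93885396-93890753 on the minus strand (ENSG00000105825.14), was the most abundant member in both groups. It measured 58.22, 60.96 and 59.44 FPKM in NC and 88.51, 94.68 and 92.08 in siFSCN1, and the groups did not overlap. The fitted fold was 1.37 (log2 0.46, SE 0.041). Both inhibitors were therefore higher, but by unequal amounts, and the FPKM ratio of TFPI2 to TFPI went from 21.5 ± 1.73 in NC to 5.82 ± 0.103 in siFSCN1 (SD, n = 3 each).

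F3, the initiator that TFPI restrains, was low in every library. It lies at chr1:94529173-94541759 on the minus strand (ENSG00000117525.14) and measured 0.54, 0.51 and 0.59 FPKM in NC and 0.68, 0.87 and 0.65 in siFSCN1. These FPKM values did not overlap, but after TMM the CPM were 1.97, 1.86 and 2.13 in NC and 2.18, 2.85 and 2.12 in siFSCN1, which overlap. The fitted log2 difference was 0.26 (SE 0.18), and it was −0.02 once the trend of fold change with abundance was taken out. Its 49 to 94 counts per library carry a counting error of 10.3% to 14.3%, so a difference of this size was not resolved.

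The plasminogen activators and the receptor were all lower in siFSCN1. PLAU, on the plus strand at chr10:73909177-73917496 (ENSG00000122861.16), measured 30.03, 35.94 and 31.31 FPKM in NC and 21.18, 20.15 and 19.98 in siFSCN1. Each silenced library was below each control, and the fitted log2 difference was −0.83 (SE 0.056), 0.562 of the NC level. The lncRNA C10orf55 overlaps PLAU on the other strand and had at most 76 counts in any library.

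PLAT was the least abundant member, at 0.32, 0.35 and 0.28 FPKM in NC and 0.16, 0.22 and 0.17 in siFSCN1. It lies at chr8:42174718-42207709 on the minus strand (ENSG00000104368.19). The groups did not overlap, and the fitted log2 difference was −0.98 (SE 0.19). With 46 to 93 counts per library, counting error alone was 10.4% to 14.7%. PLAT moved across the 2-fold line without single libraries, to −1.08 without NC replicate 3 and −1.15 without siFSCN1 replicate 2. Every other omission left PLAT under 2-fold, as far as −0.89 without siFSCN1 replicate 1. PLAU exceeded PLAT by 103 ± 8.99 times in NC and 114 ± 20.6 times in siFSCN1, which overlap.

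PLAUR, the urokinase receptor, lies on the minus strand at chr19:43646095-43670547 (ENSG00000011422.12). It measured 6.19, 7.27 and 6.08 FPKM in NC and 3.63, 3.32 and 3.07 in siFSCN1, again without overlap. The fitted value was 2.19-fold lower in siFSCN1 (log2 −1.13, SE 0.071), and scaling by library totals, under which the median of all genes sat at 0.22, gave −0.94, which is under 2-fold. The ratio of PLAU to PLAUR was 4.98 ± 0.153 in NC and 6.14 ± 0.342 in siFSCN1 (SD, n = 3 each), without overlap, so the receptor transcript was lower by proportionally more than that of its ligand.

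The fibrinogen genes stand side by side on chromosome 4, within 49.96 kb. FGB is on the plus strand at chr4:154563011-154572807 (ENSG00000171564.12), FGA on the minus strand at chr4:154583126-154590742 (ENSG00000171560.16), and FGG on the minus strand at chr4:154604134-154612967 (ENSG00000171557.17). The spaces between them are 10.3 kb from FGB to FGA and 13.4 kb from FGA to FGG. Because these neighbours were all higher by different amounts, their promoters are shown from RefSeq (GRCh38.p14), from 250 bases before to 50 bases after the transcription start, each read 5′ to 3′ on the strand of its gene. The capitals mark CTGGGAA, the core of the interleukin-6 response element bound by STAT3, and TTGCNNAA, a C/EBP pattern, searched on both strands. The motifs were picked after the sequences had been seen.
FGA, chr4:154590693-154590992, minus strand: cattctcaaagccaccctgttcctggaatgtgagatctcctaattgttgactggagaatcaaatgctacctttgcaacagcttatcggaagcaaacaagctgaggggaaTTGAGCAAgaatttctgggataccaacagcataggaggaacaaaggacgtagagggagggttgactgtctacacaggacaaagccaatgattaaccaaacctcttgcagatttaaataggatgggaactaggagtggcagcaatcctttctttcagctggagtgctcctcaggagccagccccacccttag
FGB, chr4:154562730-154563029, plus strand: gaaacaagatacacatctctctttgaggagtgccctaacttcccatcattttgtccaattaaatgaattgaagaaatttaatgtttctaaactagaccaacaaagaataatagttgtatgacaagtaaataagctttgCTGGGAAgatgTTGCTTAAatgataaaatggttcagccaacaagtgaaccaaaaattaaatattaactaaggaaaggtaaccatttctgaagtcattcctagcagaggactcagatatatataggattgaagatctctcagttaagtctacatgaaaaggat
FGG, chr4:154612607-154612906, minus strand: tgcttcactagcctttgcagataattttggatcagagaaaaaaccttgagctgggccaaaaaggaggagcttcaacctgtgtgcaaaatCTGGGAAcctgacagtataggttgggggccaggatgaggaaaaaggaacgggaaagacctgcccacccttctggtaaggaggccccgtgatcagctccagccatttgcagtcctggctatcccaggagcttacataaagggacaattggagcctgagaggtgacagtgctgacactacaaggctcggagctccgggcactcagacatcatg

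The 3 windows hold different sets of these letters. CTGGGAA begins at −112 in FGB and −161 in FGG, counted from the start site, and is not in the FGA window. TTGCNNAA is in FGA at −141, on the opposite strand, and in FGB at −101, and is not in the FGG window. No match overlaps another in these windows. Of 35116 RefSeq promoters of the same length, 10.8% hold CTGGGAA and 10.5% TTGCNNAA, so each pattern is common and a match is only a description. Of the other members, TFPI2 at −87, F3 at −223 and −210 and PLAUR at −186 hold TGANTCA, the AP-1 pattern found in 7.71% of promoters. TTGCNNAA is also in PLAU, at −122 from its second RefSeq start site, and in PLAUR, at −62 on the opposite strand. In all, 8 of the 9 members matched the RefSeq promoter set.

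FGB had the largest difference of the chains. It measured 6.52, 5.45 and 6.27 FPKM in NC and 27.04, 26.33 and 24.78 in siFSCN1, so that every silenced library lay well above every control. The fitted fold was 3.81 (log2 1.93, SE 0.060).

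FGG followed at 6.60, 4.58 and 6.11 FPKM in NC and 17.74, 16.78 and 15.86 in siFSCN1. These did not overlap either, with a 2.59-fold higher fitted value (log2 1.37, SE 0.088). NC replicate 2 was the low control, 20.6% under the NC mean CPM for FGG, 10.5% under it for FGB and 4.9% under it for FGA. Without that library the FGG difference was 1.23. NC replicate 2 was also the high control for the members that were lower, 10.8% over the NC mean for PLAU and 11.6% over it for PLAUR and PLAT. Without it their differences were −0.76, −1.06 and −0.91.

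FGA, the most abundant chain in NC, was the chain with the smallest difference. It measured 15.30, 14.05 and 14.96 FPKM in NC and 23.48, 19.90 and 19.82 in siFSCN1, without overlap. The fitted fold was 1.27 (log2 0.34, SE 0.057).

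The balance of the chains therefore differed between the groups. A ratio within a library does not depend on its depth. FGB to FGA was 0.426, 0.388 and 0.419 in NC and 1.15, 1.32 and 1.25 in siFSCN1, so FGB was the lesser transcript in each control and the greater in each silenced library. FGG to FGA went from 0.389 ± 0.0554 to 0.800 ± 0.0438, and FGB to FGG from 1.07 ± 0.107 to 1.55 ± 0.0242 (SD, n = 3 each), both without overlap. As a share of the FPKM of the 3 chains, FGA was 55.6% ± 2.39 in NC and 32.9% ± 1.41 in siFSCN1, FGB 22.8% ± 0.176 and 40.8% ± 1.10, and FGG 21.5% ± 2.22 and 26.3% ± 0.324. The FPKM sum of the chains was 26.6 ± 2.26 in NC and 63.9 ± 3.98 in siFSCN1. Counts divided by exonic length gave the same ratios, and 3 against 3 libraries cannot reach an exact two-sided permutation p under 0.1.

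**Figure D2:**
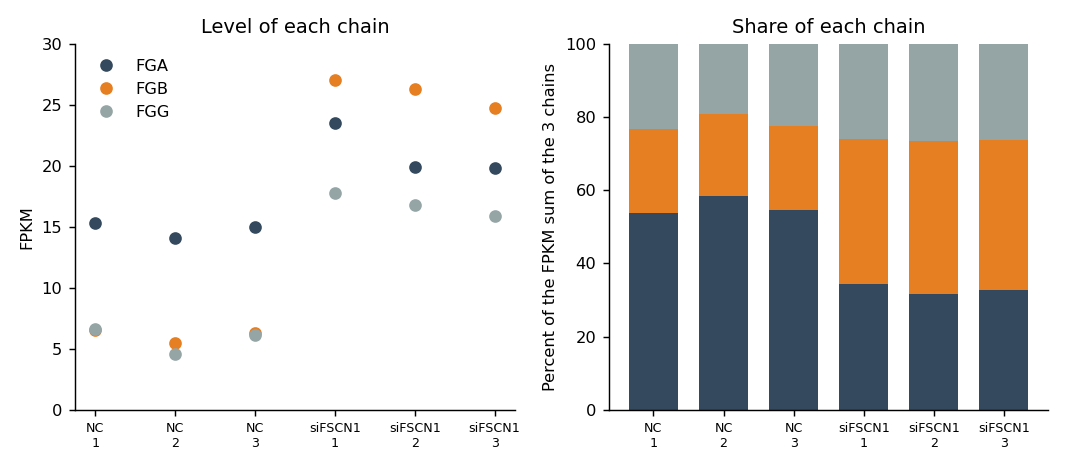
Left, FPKM of FGA, FGB and FGG in each library; right, each chain as a percent of the FPKM sum of the 3 chains in that library, on bars that add to 100. FGA is above FGB and FGG in every NC library, whereas FGB is the highest chain in every siFSCN1 library and takes 40.8% of the sum on average.

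Ordered by FPKM, the NC cells held TFPI2 (59.5), PLAU (32.4), FGA (14.8), PLAUR (6.51), FGB (6.08), FGG (5.76), TFPI (2.78), F3 (0.547) and PLAT (0.317). The ranges of PLAUR and FGB, and of FGB and FGG, overlap, so these neighbours are not separated. In siFSCN1 the order was TFPI2 (91.8), FGB (26.1), FGA (21.1), PLAU (20.4), FGG (16.8), TFPI (15.8), PLAUR (3.34), F3 (0.733) and PLAT (0.183). FGA was not separated from PLAU, nor FGG from TFPI. TFPI passed from below PLAUR to above it, and PLAU from above all fibrinogen chains to below FGB.

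Other genes of coagulation and fibrinolysis, from lists of known components, went both ways. Of 50 such genes outside the members, 34 were tested, 9 were called higher and 1 lower, and 24 were not called. Without the fold requirement, 17 were higher and 14 lower at an adjusted p under 0.05 (edgeR). These counts stand beside 11.7% and 4.85% of all tested genes called higher and lower.

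Of 17 clotting factors and their processing enzymes, 11 were tested and 4 rose, with a median log2 difference of 0.75. F7, the protease that F3 binds, rose from 0.83, 0.56 and 0.59 FPKM to 3.58, 3.01 and 2.98 (log2 fold change 2.10, SE 0.143, adjusted p = 3.2e-10, edgeR). F13B, the carrier subunit of the transglutaminase that crosslinks fibrin, rose by 2.55 (SE 0.238, adjusted p = 2.5e-08), from at most 0.22 to at least 0.95 FPKM. Prothrombin (F2) and factor X (F10), named after their values were seen, rose by 1.00 (SE 0.113) and 1.07 (SE 0.255) at low levels. Both were under 2-fold once the abundance trend was removed, at 0.84 and 0.72, which left 2 of the 4 called. By contrast GGCX and VKORC1, which carry out and sustain the vitamin K dependent carboxylation of these factors, passed the test but not the fold, at −0.69 and −0.53.

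None of 6 tested anticoagulants of 10 was called. PROS1, protein S, a cofactor of TFPI and of activated protein C, was at 0.70 (SE 0.054, adjusted p = 1.9e-09), and PROCR, the endothelial protein C receptor, at −0.59 (SE 0.042, adjusted p = 5.8e-10), both under 2-fold by edgeR. Of 4 genes of the thrombin receptor family, 3 were tested and 2 rose. F2R, the main thrombin receptor, rose from 4.22, 4.82 and 4.43 to 9.70, 10.72 and 11.75 FPKM (log2 1.09, SE 0.070, adjusted p = 1.5e-10, edgeR). F2RL2 rose from 4.44, 4.48 and 4.91 to 14.71, 15.63 and 15.87 (log2 1.57, SE 0.058, adjusted p = 8.5e-14). The family member F2RL1, also tested, was at −0.11 (adjusted p = 0.098).

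The remaining plasminogen genes had a median log2 difference of −0.35, which stayed below 0 under each of 5 other scalings or fits and was −0.07 after removal of the abundance trend. Of 19, 14 were tested, 3 were called higher and 1 lower, and at an adjusted p under 0.05 alone 5 were higher and 9 lower. ANXA2 and S100A10, which together bind plasminogen and PLAT at the cell surface, were at −0.61 and −0.54, and with the abundance trend removed at −0.10 and −0.12. SERPINI1, neuroserpin, an inhibitor of PLAT, rose from 0.42, 0.43 and 0.34 to 3.77, 3.57 and 3.30 FPKM (log2 3.00, SE 0.146, adjusted p = 3.2e-12). The other called genes, named after their values were seen, were CPB2, a carboxypeptidase that slows fibrinolysis (1.81), ST14, the protease matriptase (−1.85, at most 19 counts), and MST1 (4.23), whose near-identical pseudogene copies make its count uncertain. ST14 passed the filter on low counts only through NC, with 8, 5 and 2 counts in siFSCN1. MST1 passed it only through siFSCN1, with 10, 4 and 3 counts in NC. This tilts the call of ST14 towards lower and that of MST1 towards higher. Plasminogen itself (PLG) had 1 count in all 6 libraries, so transcript of the plasmin precursor was not detectable at this depth.

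**Figure D3:**
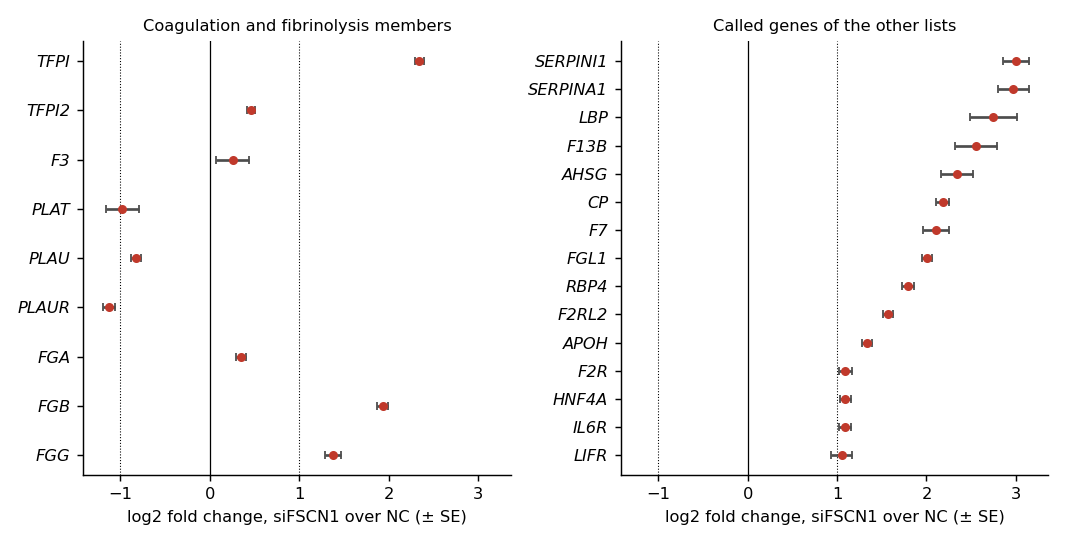
Fitted log2 fold changes of siFSCN1 over NC with their SE, for the 9 members on the left and, on the right, the 15 called genes of the other lists with the largest change and at least 1 FPKM; dotted lines mark 2-fold. TFPI is at 2.34, FGB at 1.93 and FGG at 1.37 on the left, and all 15 genes on the right lie above 1.

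Fibrinogen is a secretory product of the liver, and genes of the same class were compared with it. Of 26 acute phase and liver secretory genes, 14 were tested, 11 rose and none fell by the call rule, with a median of 1.83. Over all tested genes, 11.7% were called higher and 4.85% lower. FGL1, a fibrinogen-like protein, rose from 7.17, 6.81 and 8.18 FPKM to 34.79, 32.65 and 32.97 (log2 2.01, SE 0.057, adjusted p = 3.9e-15, edgeR). CP, ceruloplasmin, rose from 2.51, 1.99 and 2.48 to 12.19, 11.58 and 11.79 (log2 2.18, SE 0.069, adjusted p = 1.3e-14). RBP4, the plasma carrier of retinol, rose from 6.60, 5.82 and 6.99 to 26.47, 25.91 and 23.58 (log2 1.80, SE 0.066, adjusted p = 7.6e-14).

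APOH, a phospholipid-binding plasma protein, rose from 11.53, 12.22 and 10.74 to 33.73, 31.68 and 32.16 FPKM (log2 1.34, SE 0.057, adjusted p = 5.0e-13, edgeR). In siFSCN1, FGL1 and APOH lay above every fibrinogen chain, and CP lay below every chain in both groups. SERPINA1, LBP and AHSG, which encode α1-antitrypsin, the lipopolysaccharide-binding protein and fetuin-A, rose by 2.97 (SE 0.169), 2.75 (SE 0.264) and 2.34 (SE 0.177), each from under 0.5 FPKM. LBP had 7 counts in NC replicate 2 and passed the filter on low counts only through siFSCN1, which tilts its call towards higher. The classical acute phase gene SAA1 was at −0.06 (adjusted p = 0.83), with a near-identical copy in SAA2. AMBP was at −0.43 and AGT at 0.70, both past the test and under 2-fold.

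Some hepatocyte markers were higher along with these genes, and others were not. APOA1 was at 0.10, 0.08 and 0.15 FPKM in NC and 0.10, 0.02 and 0.12 in siFSCN1. Of the 10 markers, 5 were tested and all 5 were called higher. Of those 5, 4 (AHSG, HPX, ALB and TTR) also belong to the liver secretory list. HPX, ALB and TTR passed the filter on low counts only through siFSCN1, which tilts their calls towards higher. In NC, HPX had 8, 7 and 17 counts, ALB 8, 5 and 6, and TTR 6, 0 and 4. The same genes are among the 11 liver secretory genes called higher. The summed level of the hepatocyte markers was 0.57 to 0.90 FPKM in NC and 3.15 to 3.54 in siFSCN1, and AHSG was the highest of them in every library. ALB, albumin, the most abundant transcript of hepatocytes, was at most 0.23 FPKM in any library, APOA2 had no row, and 4 of the 10 stayed under 0.1 FPKM. In bulk RNA a change in the number of cells of a kind and a change of RNA per cell cannot be told apart.

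Among known regulators of the fibrinogen genes, 17 of 18 were tested, 4 rose and none fell by the call rule, with a median of 0.45. These counts stand beside 11.7% of all tested genes called higher and 4.85% called lower. The gene not tested was IL6, which encodes interleukin-6, with 4, 4 and 3 counts in NC and 6, 1 and 1 in siFSCN1. HNF4A, a liver-enriched nuclear receptor, rose from 2.10, 1.85 and 2.18 to 5.29, 4.68 and 4.69 FPKM (log2 1.09, SE 0.062, adjusted p = 2.9e-11, edgeR). IL6R, the interleukin-6 receptor, rose by 1.08 (SE 0.066, adjusted p = 7.5e-11), LIFR, the receptor of leukemia inhibitory factor, by 1.05 (SE 0.117, adjusted p = 2.7e-07), and CEBPD, a C/EBP factor of the acute phase, named after its value was seen, by 1.01 (SE 0.066). LIFR was under 2-fold without NC replicate 1 (0.98) or siFSCN1 replicate 2 (0.97), and HNF4A with limma on log2(FPKM + 1), at 0.95. Tested against 2-fold by glmTreat, HNF4A, IL6R and LIFR had adjusted p of 0.25, 0.33 and 0.99. With DESeq2, or RLE scaling in place of TMM, 3 of the list were called higher. IL6ST, the signal-transducing partner of IL6R and LIFR, was at 0.90 (adjusted p = 3.1e-11) and STAT3 at 0.59, both past the edgeR test and under 2-fold. The ligand LIF (−0.38, adjusted p = 8.7e-07), the feedback inhibitor SOCS3 (−0.34, adjusted p = 0.00034), OSMR (−0.20) and CEBPA (−0.21) passed the test in the other direction, so that 11 of the list were higher and 4 lower at an adjusted p under 0.05 alone. Whether any of these took part in the fibrinogen difference was not tested.

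**Figure D4:**
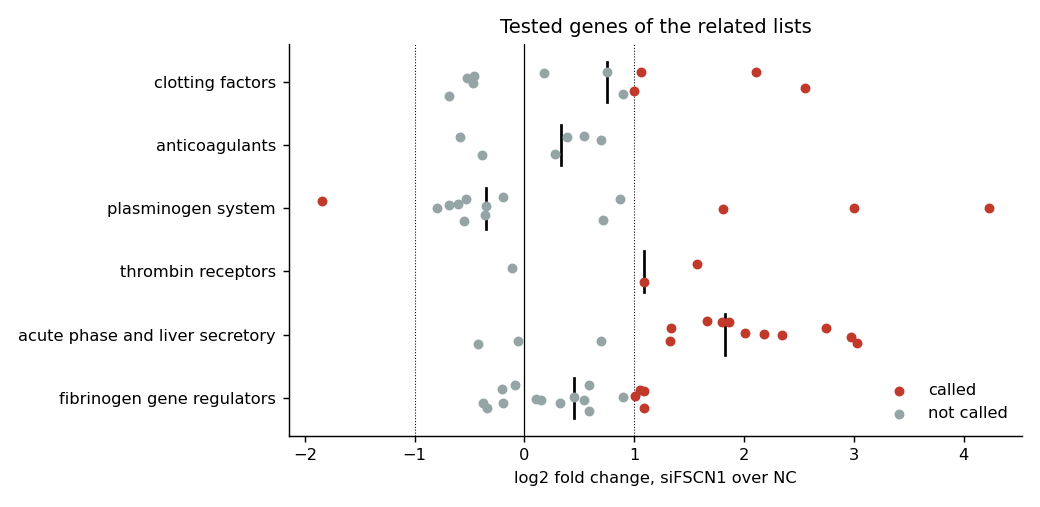
Log2 fold changes of every tested gene of the 6 related lists, with called genes in red, others in grey and the list median as a black bar; vertical jitter only separates points and dotted lines mark 2-fold. The acute phase and liver secretory list has the highest median, 1.83, and the plasminogen list, at −0.35, is the only list of the 6 with a median below 0.

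Position in the genome was not used to choose the members, so their neighbours within 500 kb were tested. Of 75 tested neighbours, 16 were called higher and none lower by edgeR, beside 11.7% and 4.85% of all genes. PLAUR, which was itself lower, had 11 of these 16 among its 29 neighbours. All 11 lay 202 to 495 kb away, in a stretch of zinc finger genes from ZNF404 to ZNF226, and no tested neighbour of PLAUR nearer than 202 kb was called. The genes that flank the fibrinogen cluster were not called. PLRG1, a splicing factor on the FGB side, was at −0.17 (SE 0.051, adjusted p = 0.0069), and LRAT at 0.84 (adjusted p = 0.047, at most 0.10 FPKM). Of the members' nearest genes, those called were CALCRL-AS1 over TFPI, at 1.20 (SE 0.323), and SLC44A3-AS1, 72.1 kb from F3, at 1.73 with at most 0.09 FPKM. CALCRL-AS1 had 7 counts in NC replicate 2 and passed the filter on low counts only through siFSCN1, which tilts its call towards higher. TFPI2 and its neighbour GNG11, 31.0 kb away, had like differences of 0.46 and 0.51.

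The genes whose pattern over the 6 libraries was most like that of TFPI were sought by the root mean square difference of log2 CPM, each gene centred on its own mean, among 11702 genes of at least 1 FPKM in the higher group. The nearest was LINC02615, a lncRNA, at 0.077 on the log2 scale. SMOC1, a secreted matrix protein, followed at 0.087, with 2.44, 2.36 and 2.58 FPKM in NC and 15.55, 14.70 and 13.86 in siFSCN1. NPFF, a neuropeptide precursor, was the third at 0.093. Of the members, FGB was nearest to TFPI, in place 47 (0.213), ahead of FGG in place 273 (0.493). With 2 groups of 3 libraries, this likeness mostly reflects a difference of about the same size between the groups.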

How the data were processed

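Sample titles gave the group and replicate number of each library. The authors deposited whole-number counts per gene (30230 genes) and FPKM values (29899 genes) made from reads aligned to GRCh38. The methods name HISAT2, and the submitters' processing notes name TopHat2. The counter, its strand setting and its annotation were not given in the sources used here.

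The members and gene lists were chosen with earlier results of these data known. Genes passing filterByExpr (17076) were TMM-scaled and compared without covariates by the quasi-likelihood test of edgeR 4.0.16 under R 4.3.3, and p-values were adjusted over all of them by Benjamini-Hochberg. The fit was tested on simulated data. The authors used DESeq2, run here as an alternative (1.42.0) beside limma 3.58.1 on log2(FPKM + 0.1) and log2(FPKM + 1). Levels between genes are in deposited FPKM, which carry no TMM factor (0.933 to 0.942 in NC, 1.05 to 1.08 in siFSCN1), so FPKM folds exceed fitted ones. Positions are from GENCODE v44, where 30147 identifiers matched.

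Named were all members, FSCN1, up to 15 called list genes of at least 1 FPKM by fold change, called nearest neighbours, and the 3 genes nearest to TFPI in pattern. Others are marked or illustrate a list count. Library pairs of a group differed beyond counting noise (chi-square per degree of freedom 3.03 to 8.14). Columns of the authors' own comparisons were not used. Some list genes are counted but are not reported here by name.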

Additional observations from a re-analysis of the deposited data

How the results depend on the processing

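TFPI, FGB and FGG kept their call under all 18 alternatives, with log2 fold changes from 2.15 to 2.56, 1.85 to 2.12 and 1.23 to 1.56. F3 turned from 0.26 to −0.0233 when the abundance trend was removed. The members called lower (1) numbered 0 with library totals, both limma fits and glmTreat (a test against 2-fold), 2 with DESeq2 (adding PLAT) or the trend removed, and 1 to 2 without a single library. Without the fold threshold, 5 members were higher and 3 lower. The coagulation genes called higher (9) numbered 4 with log2(FPKM + 1), 17 without the fold and 8 to 10 without a library. Those lower (1) numbered 0 with a stricter filter, both limma fits or glmTreat, and 14 without the fold. The liver genes and regulators called higher (15) numbered 9 with log2(FPKM + 1), 23 without the fold, 8 with glmTreat and 14 to 15 without a library, and those lower (0) numbered 5 without the fold. Neighbours called higher (16) numbered 2, 39, 7 and 14 to 18 in that order of settings, and lower (0) 11 without the fold, 2 with the trend removed and 0 to 1 without a library. Over all genes the higher calls (1991) numbered 285, 5993, 773 and 1973 to 2136, and the lower (829) 510 with library totals, 395 and 186 with limma at 0.1 and 1, 5670 without the fold, 382 with glmTreat and 837 to 932 without a library. The cause was not tested. FSCN1 lay between −4.11 and −3.77 without a library.

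Same-numbered libraries did not deviate together (r −0.03, 0.04 and −0.08), so the numbers showed no sign of a pairing. These correlations cannot exclude that the libraries were handled in pairs. With the replicate number as a block 3 members were called higher and 1 lower, and no call of FSCN1, a member or a gene named by the rule changed. Over all genes it gave 1992 higher and 835 lower calls, and 15 neighbours called higher. F3 and PLAT, under 100 counts per library, are the members whose depth limits precision.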
